A study of Mus musculus with 9 samples.

Results

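The proteasome is the large protease that degrades ubiquitin-tagged proteins in the cytosol and nucleus. Its cylindrical core, called 20S, stacks rings of alpha (Psma) and beta (Psmb) subunits, and the catalytic sites lie in Psmb5, Psmb6 and Psmb7. A regulatory cap, called 19S, holds an ATPase ring that unfolds substrates (Psmc) and non-ATPase subunits that bind and strip ubiquitin (Psmd). In lymphocytes, and in other cells exposed to interferon gamma, the catalytic subunits are exchanged for Psmb8, Psmb9 and Psmb10, which form the immunoproteasome and favour peptides for antigen presentation. Alternative caps are built from Psme1 and Psme2 (PA28 alpha and beta), from Psme3 (PA28 gamma, a nuclear activator) or from Psme4 (PA200).

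Genes were taken by symbol, as all names that begin with Psm, a letter from a to g, and a digit. The 9 libraries listed 50 such symbols, and the 47 with a mean of at least 1 FPKM over all libraries were kept, out of 12997 genes that passed the same limit and 17179 symbols in all. FPKM are fragment counts scaled to transcript length and library size. Psma8, Psmb11 (of the thymus form) and Psme2b were under the limit, the nearest being Psme2b with a mean of 0.844 FPKM, and the lowest gene kept was Psmc3ip with 5.31. Of the 47, Psmc3ip carries the name only by its interaction with Psmc3 and encodes a recombination protein, so it is described apart. The others comprised 7 alpha subunits, 7 standard beta subunits, 3 immunoproteasome subunits, 6 ATPases and 11 non-ATPases of the 19S cap, 4 activator subunits, the inhibitor Psmf1 and 7 assembly chaperones (Psmg1 to Psmg4, Psmd5, Psmd9 and Psmd10).

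The libraries were made from aortas of C57BL/6J mice. The normal group (2 libraries) drank distilled water, and every other group received β-aminopropionitrile (BAPN), a lysyl oxidase inhibitor that induces aortic dissection, at 1 g/kg/day. One group received BAPN alone (2 libraries). The TPA group (2 libraries) also received the AP-1 activator TPA by intraperitoneal injection at 50 ng/g/day from day 1. The T-5224 group (2 libraries) also received the AP-1 inhibitor T-5224 by gavage at 5 mg/kg/day, and the single coQ10 library came from gavage with coenzyme Q10 at 10 mg/kg/day, written co110 in its label. Gavage began on day 7 or 14 and the treated mice were killed on day 28. The T-5224 libraries are titled 2 weeks (replicate 1) and 3 weeks (replicate 2), so the replicates of that group may differ in schedule. The series counts 9 aortas for its 9 libraries, but the labels tie no library to an animal, and they state neither age nor sex. P-values measure the spread between these libraries. TPA, T-5224 and coQ10 are each compared with the same 2 BAPN libraries, and TPA against T-5224 shares libraries with those comparisons, so the comparisons are not independent of each other.

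Several libraries stood apart before any proteasome gene was considered. All 7 smooth muscle markers were listed in all 9, but their mean on the log2(FPKM + 1) scale was 8.41 and 10.0 in normal against 6.06 and 4.99 in BAPN, and between 6.38 and 8.98 in the other groups. Their median change in BAPN against normal was -3.67, and 1 of 7 was called lower. Neutrophil markers summed to 34.0 and 26.3 FPKM in normal against 1886 and 1073 in BAPN, and nerve and Schwann cell markers to 67.4 and 9.12 against 742 and 731. The part of these shifts in the changes of proteasome genes was not tested. Haemoglobin genes held 68.9% to 74.1% of the summed FPKM in the BAPN and TPA libraries, 40.8% and 11.2% in the T-5224 libraries, and 1.03% to 5.4% in normal and coQ10. Airway epithelium markers summed to 16837 FPKM in normal replicate 1, to 12291 and 4608 in the TPA libraries and to 4218 in T-5224 replicate 2, with no more than 36.0 elsewhere. Transcript length correlated by rank with the deviation of each library from the gene means, at 0.28 and 0.40 for normal, -0.37 for T-5224 replicate 2 and between -0.19 and 0.11 for the remaining 6. Proteasome transcripts are short, with a median longest transcript of 1883 bases over the 47 genes against 3342 over all tested genes with a length. Any trend with length therefore moves these genes relative to the rest. Because the tissue is bulk, fewer cells of a type and less RNA per cell cannot be told apart.

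The core subunits were abundant. FPKM are scaled by length, so levels are set beside each other between genes, although the trends with length given above limit such a comparison. Mean levels over the 9 libraries ran from 40.8 to 157 FPKM in the alpha ring and from 78.9 to 163 FPKM in the standard beta ring, from Psma5 and Psmb5 at the low ends to Psma7 and Psmb3 at the high ends. In the 19S cap, ATPases ran from 55.0 (Psmc2) to 137 FPKM (Psmc3), and non-ATPases from 27.9 (Psmd14, the deubiquitinase) to 152 FPKM (Psmd4, a ubiquitin receptor). Immunoproteasome subunits were lower, at 18.0 to 29.7 FPKM, and assembly chaperones were at 7.17 to 29.1 FPKM, with a median of 12.6 against 27.3 for the immunoproteasome genes. Between their lowest and highest libraries 8 of the 47 genes differed by less than 2-fold and 17 by more than 3-fold. Without T-5224 replicate 2 these numbers were 31 and 5, since 36 of the 47 genes had their highest value in that library.

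Summed over the 47 genes, the level was 3143 and 2797 FPKM in normal, 3171 and 2644 in BAPN, 2433 and 2627 with TPA, 3463 and 5645 with T-5224 and 3288 with coQ10. T-5224 replicate 2 was the highest library and TPA replicate 1 the lowest. As a share of the FPKM sum without haemoglobin, the 47 genes held 0.550% and 0.563% in normal, 0.625% and 0.565% in BAPN, 0.544% and 0.582% with TPA, 0.634% and 0.580% with T-5224 and 0.564% with coQ10. On that scale the BAPN, T-5224 and coQ10 libraries were all above both normal libraries. For BAPN replicate 2 and coQ10 the margin over normal replicate 2 was smaller than the gap between the normal libraries. TPA overlapped with normal, and T-5224 replicate 2 lay within the range of the other libraries.

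**Figure D1:**
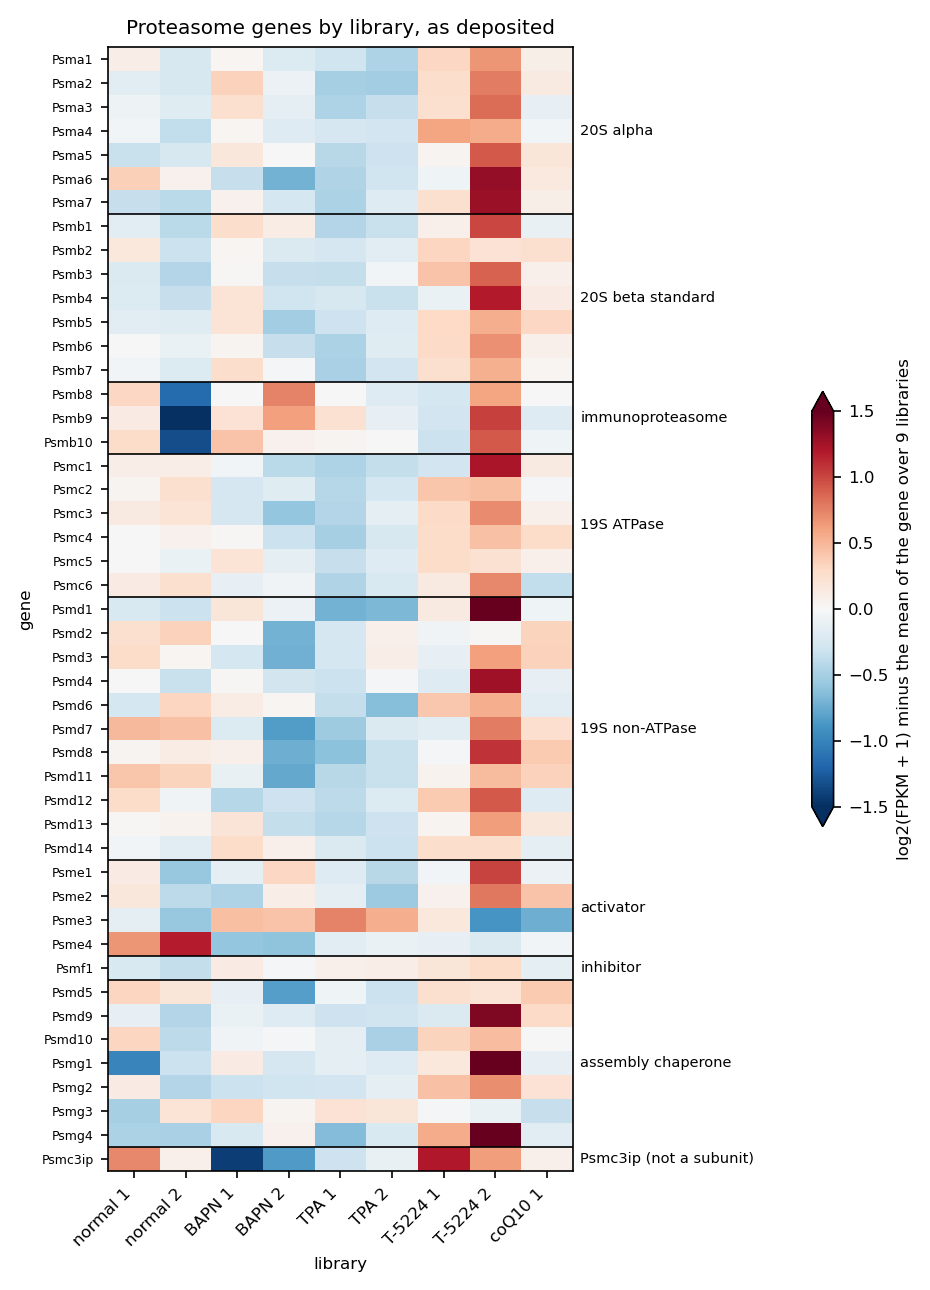
Level of each of the 47 genes (rows, grouped by role) in each of the 9 libraries (columns), as log2(FPKM + 1) minus the mean of that gene over all libraries. Red is higher and blue lower than the mean of the gene; T-5224 replicate 2 is the highest library for 36 genes, the 3 immunoproteasome genes are lowest in normal replicate 2, and Psme4 is highest in the normal libraries.

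BAPN against normal asked whether proteasome genes differ in the aortas of mice given BAPN. Psme4 fell, and no other of the 47 genes passed the test, which called 2.36% of all 12997 genes lower and 0.900% higher. The level of Psme4 was 16.1 and 23.5 FPKM in normal, 6.25 and 6.12 in BAPN, 8.63 and 9.13 with TPA, 8.92 and 8.30 with T-5224 and 9.55 with coQ10. The 7 libraries that received BAPN were all below both normal libraries, and the BAPN libraries were the lowest. The share of all genes with this order was not counted, but both BAPN libraries were below both normal libraries for 51.1%. The mean was 6.19 ± 0.092 FPKM in BAPN against 19.8 ± 5.22 in normal (SD, n = 2 libraries each), a log2 change of -1.51 (SE 0.280, limma adjusted p = 0.0489). Psme4 lies on chromosome 11 from 30771775 to 30881150 in GRCm38, the assembly of mm10, and its longest transcript of 6491 bases is the longest among the 47 genes. With the length trend removed the change was -0.68 (limma adjusted p = 0.275). The sign was negative in all 17 alternative settings, but 13 of them lost the call.

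At an unadjusted p below 0.05 in limma, 4 of the 47 genes (8.51%) were lower and 0 higher, against 25.9% and 6.50% of all genes. The median change of the 47 genes was 0.040 log2 against -0.51 for all genes, a difference of 0.55. The median deviation from the gene means, for the 47 genes minus all genes, was also taken per library. It was -0.36 and -0.28 in normal, 0.29 and 0.096 in BAPN, and 0.074 and 0.74 with T-5224. Its SD within groups, pooled over the groups, was 0.249, and the T-5224 pair, not in this comparison, lay furthest apart. The difference of 0.55 became 0.62 with median-of-ratios scaling and 0.145 with the length trend removed. Every BAPN library was above every normal library for 12 of 47 genes (25.5%), against 15.0% of all genes, and below for 13 (27.7%), against 51.1%. These counts were 35 and 2 with median-of-ratios scaling (30.4% and 28.6% of all genes), 20 and 10 with haemoglobin left out of the sum (17.9% and 46.8%), and 18 and 7 with the length trend removed (29.1% and 28.2%). The balance of higher and lower members therefore changed with the scaling. As deposited, with median-of-ratios scaling and with haemoglobin left out, 25, 38 and 31 of the 47 changes were above 0. The shares of all genes above 0 were 27.5%, 49.7% and 31.9%. With haemoglobin left out the median of the 47 genes minus that of all genes was 0.57. By role, the standard beta subunits had a median change of 0.16, with 5 of 7 above 0, and the alpha subunits 0.18, also with 5 of 7 above 0. The ATPases had a median of -0.30, with 1 of 6 above 0, and the 11 non-ATPases -0.40, with 4 above 0. Psmd7, a partner of Psmd14 in the lid, was at 111 and 108 FPKM in normal and 68.6 and 44.1 in BAPN (-0.98, limma adjusted p = 0.15). Psmd11, a lid subunit, was at 49.6 and 46.6 in normal and 34.1 and 21.2 in BAPN (-0.81, limma adjusted p = 0.139). Neither passed, although the groups did not overlap for either gene.

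**Figure D2:**
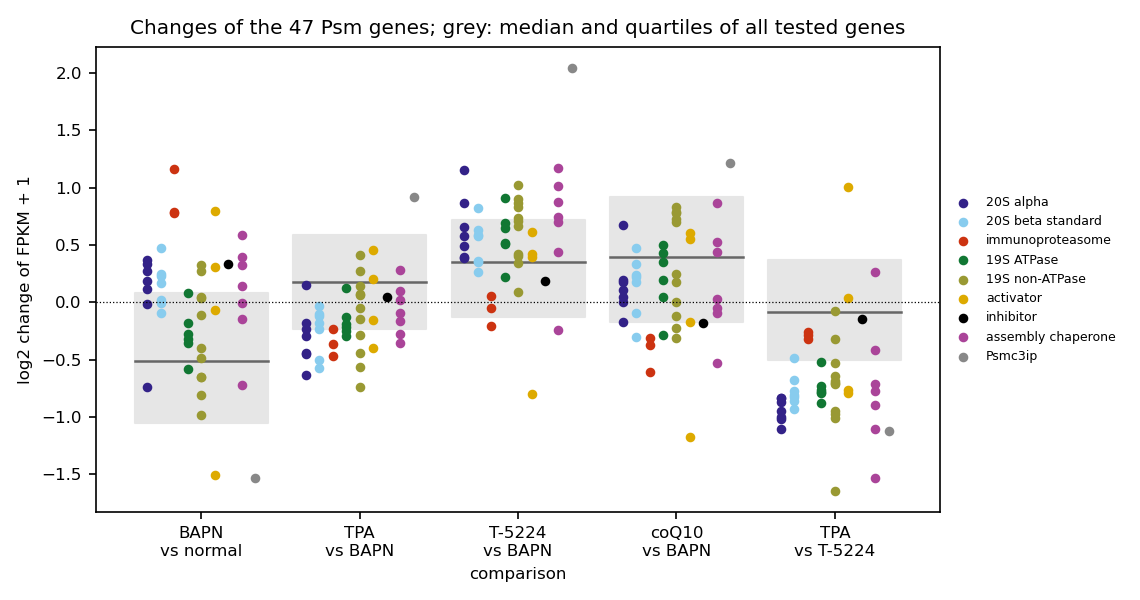
Log2 change of FPKM + 1 (vertical axis) of each of the 47 genes in the 5 comparisons (horizontal axis), coloured by role; the grey line and band are the median and quartiles of all 12997 tested genes. In BAPN against normal 38 of the 47 genes lie above the median of all genes (medians 0.040 and -0.51), and in TPA against T-5224 only 4 do (medians -0.78 and -0.085).

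Psme3, the nuclear activator, was highest in the BAPN and TPA libraries. It was at 48.0 and 35.3 FPKM in normal, 72.7 and 71.6 in BAPN, 89.2 and 77.5 with TPA, 59.2 and 28.1 with T-5224 and 31.4 with coQ10. The TPA and BAPN libraries were all above the other 5. The share of all genes with this order was not counted, so it is given as a description only. The change was 0.80 in BAPN against normal (SE 0.399, limma adjusted p = 0.214), 0.20 in TPA against BAPN (0.868), -0.80 in T-5224 against BAPN (0.326), -1.18 in coQ10 against BAPN (0.25) and 1.01 in TPA against T-5224 (0.447), so none passed. Without normal replicate 1 and T-5224 replicate 2, Psme3 was called lower in coQ10 against BAPN (limma adjusted p = 0.0282), where 5.79% of all genes were. Within a library the ratio of Psme3 to Psme4 in FPKM, which no scaling of the whole library moves, was 2.98 and 1.5 in normal, 11.6 and 11.7 in BAPN, 10.3 and 8.48 with TPA, 6.63 and 3.39 with T-5224 and 3.29 with coQ10. A trend with length can move that ratio, because the longest transcript has 2664 bases for Psme3 and 6491 for Psme4. The haemoglobin share was also highest in the BAPN and TPA libraries. The part of either in this order was not tested. Psme3 lies on chromosome 11 from 101316213 to 101323537.

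Upstream sequences of these activators, whose levels had opposite orders in BAPN and normal, are shown as the 250 bases before each RefSeq start, 5′ to 3′ on the strand of the gene in GRCm38.p6, with motifs in capitals.
Psme4 (chr11:30771525-30771774, plus strand): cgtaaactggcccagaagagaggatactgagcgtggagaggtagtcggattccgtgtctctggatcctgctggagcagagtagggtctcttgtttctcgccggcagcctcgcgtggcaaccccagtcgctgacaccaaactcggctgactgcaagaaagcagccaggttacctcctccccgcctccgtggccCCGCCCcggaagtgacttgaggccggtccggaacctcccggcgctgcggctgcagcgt
Psme3 (chr11:101315963-101316212, plus strand): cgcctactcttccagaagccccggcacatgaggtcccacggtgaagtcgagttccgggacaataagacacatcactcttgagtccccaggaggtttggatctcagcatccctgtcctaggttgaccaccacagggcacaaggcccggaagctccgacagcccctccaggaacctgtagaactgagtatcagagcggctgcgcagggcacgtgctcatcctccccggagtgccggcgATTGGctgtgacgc
The motifs searched on both strands were TGACNNNGC (the core of the antioxidant response element, which the proteasome regulator Nfe2l1 binds), TGANTCA (AP-1), TTCNNNGAA (the interferon gamma activated site), the core of the interferon-stimulated response element, CCAAT and GGGCGG (the GC box). The capitals mark a GC box in Psme4, 58 bases before the start, and a CCAAT box in Psme3, 14 bases before it, each on the opposite strand. Neither window held TGANTCA, which was found in 6.75% of all 32817 windows of this length.

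**Figure D3:**
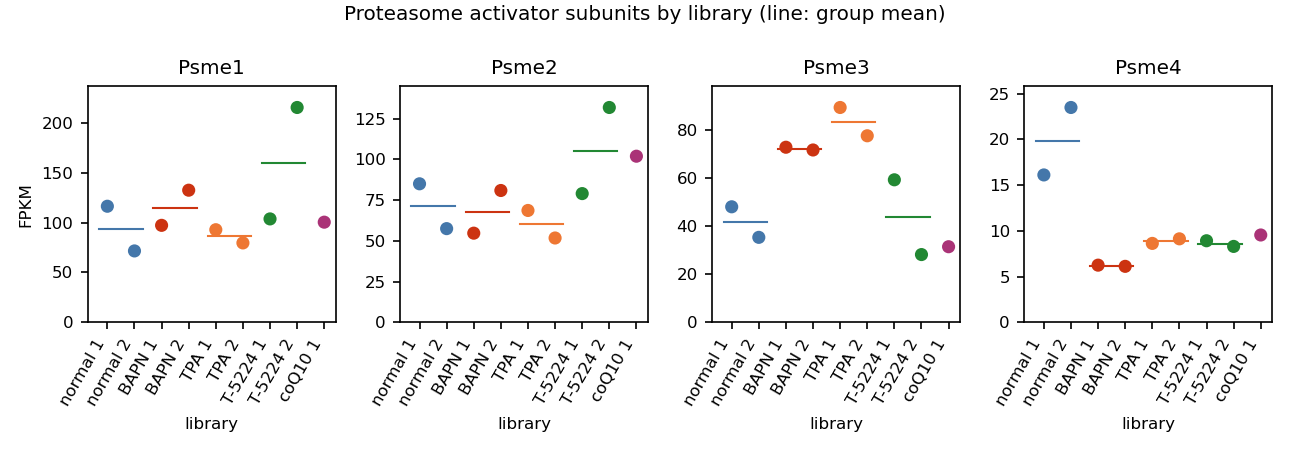
FPKM (vertical axes, from 0) of the activator subunits Psme1 to Psme4 in each library (horizontal axes), coloured by group, with the mean of each group of 2 as a line. Psme4 is at 16.1 and 23.5 in normal and at most 9.55 elsewhere, and Psme3 is at least 71.6 in BAPN and TPA and at most 59.2 elsewhere. The share of all genes with such orders was not counted.

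PA28 alpha and beta, the interferon-inducible cap, showed no such order. Psme1 was at 116 and 71.6 FPKM in normal, 97.3 and 133 in BAPN, 92.9 and 79.6 with TPA, 104 and 216 with T-5224 and 100.5 with coQ10. Both TPA libraries were below the BAPN and T-5224 libraries, and normal overlapped with BAPN, TPA and T-5224. Psme2 was at 85 and 57.5 in normal, 54.7 and 80.8 in BAPN, 68.6 and 51.7 with TPA, 78.9 and 132 with T-5224 and 102 with coQ10. The genes lie 5912 bases apart on chromosome 14, and the ratio of Psme1 to Psme2 stayed between 0.986 and 1.78 in the 9 libraries. Reads of Psme2 and of its near-identical copy Psme2b, listed in 5 libraries at up to 3.95 FPKM, may be split between the copies.

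None of the immunoproteasome subunits passed the test in any of the 5 comparisons. Psmb8 was at 34.8 and 12.0 FPKM in normal, 27.7 and 47.4 in BAPN, 27.7 and 24.4 with TPA, 23.0 and 42.4 with T-5224 and 27.7 with coQ10. Psmb9 was at 17.8 and 4.64 in normal, 19.1 and 25.5 in BAPN, 19.2 and 14.8 with TPA, 13.2 and 34.1 with T-5224 and 14.1 with coQ10. Psmb10 was at 30.8 and 9.49 in normal, 34.6 and 26.6 in BAPN, 26.0 and 25.2 with TPA, 20.1 and 48.9 with T-5224 and 24.2 with coQ10. All 3 were lowest in normal replicate 2, and the highest library was T-5224 replicate 2 for Psmb9 and Psmb10 and BAPN replicate 2 for Psmb8. The changes in BAPN against normal were 0.79 for Psmb8, 1.16 for Psmb9 and 0.78 for Psmb10 (limma adjusted p = 0.356, 0.258 and 0.4). In the other 4 comparisons the 3 genes lay between -0.61 and 0.050, and none passed. Without normal replicate 1 and T-5224 replicate 2 the 3 genes were called higher in BAPN, with changes of 1.52, 2.03 and 1.58 (limma adjusted p = 0.0326, 0.0112 and 0.014). That fit has normal replicate 2, the library with the lowest values, as its only control, takes its spread from the BAPN and TPA pairs, and called 9.53% of all genes higher and 21.5% lower.

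Each immunoproteasome subunit takes the place of 1 standard subunit, so the ratio of their transcripts within a library is given. Scaling of the whole library has little effect on it, but a trend with length can move it. The longest transcripts have 1907 bases for Psmb8 and 899 for Psmb5, and 2884 for Psmb9 and 966 for Psmb6. They have 1311 for Psmb10 and 2849 for Psmb7. The assembled forms themselves were not measured. Psmb5 was at 68.4 and 67.6 FPKM in normal, 88.7 and 53.3 in BAPN, 61.6 and 66.9 with TPA, 95.0 and 112 with T-5224 and 95.8 with coQ10. As a percentage of Psmb5, Psmb8 was 50.8 and 17.8 in normal, 31.2 and 88.9 in BAPN, 44.9 and 36.5 with TPA, 24.2 and 37.8 with T-5224 and 28.9 with coQ10. The BAPN pair spanned most of the range over all libraries. Psmb6 was at 104.5 and 96.9 FPKM in normal, 108 and 82.1 in BAPN, 74.95 and 91.7 with TPA, 127 and 168 with T-5224 and 109.6 with coQ10. Psmb9 was 17.0% and 4.79% of Psmb6 in normal, 17.7% and 31.1% in BAPN, 25.6% and 16.2% with TPA, 10.4% and 20.3% with T-5224 and 12.9% with coQ10. The standard subunits Psmb5 and Psmb6 were highest in T-5224 replicate 2. Psmb7 was at 109 and 97.7 in normal, 135 and 111 in BAPN, 80.3 and 92.0 with TPA, 134 and 163 with T-5224 and 115 with coQ10. Psmb10 was 28.2% and 9.72% of Psmb7 in normal, 25.6% and 23.9% in BAPN, 32.4% and 27.4% with TPA, 15.0% and 29.9% with T-5224 and 21% with coQ10. In all 9 libraries each immunoproteasome subunit was below its standard counterpart. Over the 5 groups, an exact permutation test of the F statistic of the log2 ratio of FPKM + 1 (which has no direction, 22680 arrangements) gave p = 0.801 for Psmb8 to Psmb5, 0.553 for Psmb9 to Psmb6 and 0.789 for Psmb10 to Psmb7, each 0.801 after Benjamini-Hochberg adjustment over the 3 ratios. A difference between groups was therefore not resolved from the spread within them, which does not show that the groups are alike.

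**Figure D4:**
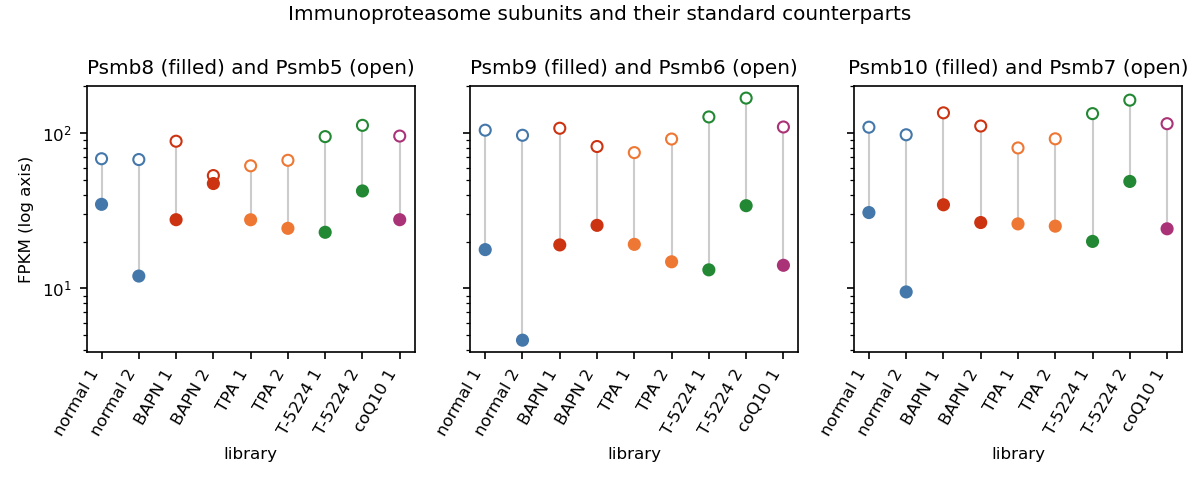
FPKM on a log axis (vertical) of each immunoproteasome subunit (filled) and of the standard subunit it replaces (open) in each library (horizontal), coloured by group and joined by a line. The filled points are lowest in normal replicate 2 (12.0, 4.64 and 9.49 FPKM), and in BAPN replicate 2 Psmb8 reaches 88.9% of Psmb5.

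Lymphocytes use the immunoproteasome, so T cell markers are given beside these subunits. The 6 listed of 7 T cell markers (Cd3e, Cd3d, Cd3g, Cd4, Cd8a and Lck) summed to 9.34 FPKM in normal replicate 1 and 1.70 in replicate 2, 17.1 and 129 in BAPN, 65.1 and 46.7 with TPA, 5.49 and 6.99 with T-5224 and 4.13 with coQ10. Normal replicate 2 had the lowest sum and BAPN replicate 2 the highest of these, which are also the lowest and the highest library for Psmb8. T-5224 replicate 2, the highest library for Psmb9 and Psmb10, had Cd3e and Cd3g at 0, and coQ10 had Cd3d at 0. The part of T cells in the values of the immunoproteasome genes was not tested.

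Psmb9 and Psmb8 lie side by side with the peptide transporter genes on chromosome 17, in the order Psmb9 (34182030 to 34187330), Tap1, Psmb8 (34198195 to 34201454) and Tap2, and 225 bases separate Psmb9 from Tap1. Tap1 was at 12.2 and 4.14 FPKM in normal, 7.84 and 32.9 in BAPN, 14.8 and 8.61 with TPA, 8.19 and 8.37 with T-5224 and 11.8 with coQ10, again with normal replicate 2 lowest and BAPN replicate 2 highest. Of 13 tested antigen processing genes, none was called in any of the 5 comparisons, and the list's median in BAPN against normal was -0.085 against -0.51 for all genes. The upstream windows of Psmb8 and Psmb9, which share this locus, and of their standard counterparts Psmb5 (chromosome 14 from 54614120 to 54617995) and Psmb6 (chromosome 11 from 70525324 to 70527858) are set out for comparison, in the form used for the activators.
Psmb8 (chr17:34197945-34198194, plus strand): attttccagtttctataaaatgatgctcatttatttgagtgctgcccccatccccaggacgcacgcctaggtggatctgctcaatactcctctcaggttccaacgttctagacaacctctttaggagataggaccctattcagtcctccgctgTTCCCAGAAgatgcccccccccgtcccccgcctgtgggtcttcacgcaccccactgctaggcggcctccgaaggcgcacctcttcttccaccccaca
Psmb9 (chr17:34187331-34187580, minus strand): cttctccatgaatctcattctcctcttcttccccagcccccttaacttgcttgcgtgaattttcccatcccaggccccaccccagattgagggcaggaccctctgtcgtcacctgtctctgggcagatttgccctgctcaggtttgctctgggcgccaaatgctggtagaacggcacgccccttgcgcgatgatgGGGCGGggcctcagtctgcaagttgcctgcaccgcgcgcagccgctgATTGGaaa
Psmb5 (chr14:54617996-54618245, minus strand): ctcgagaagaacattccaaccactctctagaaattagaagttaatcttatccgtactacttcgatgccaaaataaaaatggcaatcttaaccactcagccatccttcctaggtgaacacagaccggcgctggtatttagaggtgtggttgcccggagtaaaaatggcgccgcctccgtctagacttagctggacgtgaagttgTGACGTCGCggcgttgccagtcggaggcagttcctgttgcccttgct
Psmb6 (chr11:70525107-70525356, plus strand): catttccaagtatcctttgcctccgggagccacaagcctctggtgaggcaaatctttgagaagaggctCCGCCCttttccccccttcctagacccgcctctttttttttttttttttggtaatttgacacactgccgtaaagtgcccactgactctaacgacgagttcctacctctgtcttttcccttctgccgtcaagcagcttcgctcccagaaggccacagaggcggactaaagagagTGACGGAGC
The capitals in Psmb8 are an interferon gamma activated site, those in Psmb9 a GC box and a CCAAT box, and those in Psmb5 an antioxidant response element core, 97, 55 and 8, and 47 bases before the start. Psmb6 holds such a core 9 bases and a GC box 182 bases before its start. The Psmb9 window reaches into the first bases of Tap1, and the Psmb6 window ends inside the span of its gene because its listed start lies downstream. The interferon motif TTCNNNGAA was in 7.01% of all windows and in 2 of the 40 genes of the 47 with a window (Psmb8 and Psmg1). The antioxidant response element core was in 10.2% of all windows and in 5 of 40 genes (12.5%), which were Psmb5, Psmb6, Psmc6, Psmd12 and Psmd9. The GC box was in 32.7% of all windows and in 22 of 40 genes (55%), the CCAAT box in 33.8% and 14 of 40 (35%), and the AP-1 motif in 6.75% and 1 of 40 (Psmd9). The interferon-stimulated response element core was in 2.97% of all windows and in 3 of 40 genes (Psmb3, Psmd4 and Psmd9). A match is a description of the letters only.

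TPA with BAPN against BAPN alone asked what an AP-1 activator adds. None of the 47 genes passed in limma, while 0.0231% of all genes were called higher and 0.0154% lower. At an unadjusted p below 0.05 none of the 47 was higher or lower, against 6.12% and 4.04% of all genes. Changes were above 0 for 14 of 47 genes against 61.8% of all genes, with a median of -0.18 against 0.18. The TPA libraries were both below both BAPN libraries for 19 of 47 genes (40.4%), against 21.2% of all genes, and above for 5 (10.6%), against 41.4%. Among the 46 proteasome genes the lowest changes were those of Psmd1, a base scaffold, at 37.7 and 38.8 FPKM against 71.0 and 58.7 (-0.74, limma adjusted p = 0.62), Psma2 at 74.3 and 73.4 against 134 and 99.5 (-0.64, 0.525) and Psmb1 at 91.4 and 98.0 against 149 and 134 (-0.57, 0.602). In each the groups did not overlap, and none passed. At the other end were Psme4 (0.46), Psmd3 (0.41) and the base chaperone Psmd5 (0.28). All 7 standard beta subunits and 6 of 7 alpha subunits had negative changes. The counts below and above without overlap were 30 and 2 with median-of-ratios scaling (30.2% and 31.1% of all genes), 10 and 8 with haemoglobin left out of the sum (17.4% and 47.4%), and 23 and 3 with the length trend removed (30.4% and 30.0%). Changes above 0 numbered 6 and 18 under the first and second of these, against 50.1% and 68.2% of all genes.

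T-5224 with BAPN against BAPN alone asked what the AP-1 inhibitor changes. None of the 47 genes passed in limma, where 0% of all genes were called higher and 0.0308% lower. At an unadjusted p below 0.05, 8 (17.0%) were higher and 0 lower, against 12.0% and 6.26% of all genes. Changes were above 0 for 43 of 47 genes, against 69.4% of all genes, with a median of 0.58 against 0.35. The T-5224 libraries were both above both BAPN libraries for 27 of 47 genes (57.4%), against 34.2% of all genes. They were both below for 2 (4.26%), against 12.8%. The counts above and below were 9 and 3 with median-of-ratios scaling (17.1% and 20.7% of all genes), 6 and 8 with haemoglobin left out of the sum (9.51% and 22.4%), and 9 and 3 with the length trend removed (18.3% and 21.2%). With haemoglobin left out the median change of the 47 genes was 0.0046, against -0.12 for all genes. Among the 46 proteasome genes the highest changes were those of Psmg4, a chaperone of the alpha ring, at 37.7 and 80.2 FPKM against 21.5 and 26.6 (1.17, limma adjusted p = 0.219), Psma6 at 122 and 318 against 99.9 and 77.1 (1.16, 0.271) and Psmd12 at 52.8 and 76.6 against 29.5 and 32.1 (1.02, 0.188). The groups did not overlap for any of the 3. Besides Psme3, the lowest changes were those of Psmg3 (-0.25) and Psmb8 (-0.21).

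The T-5224 replicates differed from each other for most members. Regardless of sign, the median difference was 0.57 log2 for the 47 genes and larger, at 0.74, for all genes. Replicate 2 was above replicate 1 for 38 of 47 genes, with a median difference of 0.51 log2 against -0.057 for all genes, whereas the median differences of the 47 genes within the normal, BAPN and TPA pairs were -0.12, -0.28 and 0.11. Psmd1 was at 68.6 and 215 FPKM, Psmg1 at 12.2 and 38.4, Psmd9 at 7.96 and 26.4, Psmc1 at 70.3 and 202 and Psma7 at 173 and 358. In contrast, Psma4 was at 160 and 156, Psmb2 at 167 and 156, Psmc2 at 72.3 and 73.7, Psmc5 at 103 and 98.9 and Psmd14 at 33.4 and 33.3. Subunits of 1 complex were thus far apart in one part of the list (Psmd1, Psmc1 and Psma7) and level in another. Psmg1 and Psmd9, also far apart, are assembly chaperones. Psmd1 and Psmd2, the base scaffolds, were at 215 and 48.2 FPKM in replicate 2 and at 68.6 and 45.9 in replicate 1. Without replicate 2, the median of the 47 genes minus that of all genes in T-5224 against BAPN was -0.027, and without replicate 1 it was 0.56, against 0.23 with both. Replicate 2 carries the airway markers and the lowest length correlation given earlier, and their part in these values was not tested.

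TPA against T-5224, both given with BAPN, set the activator against the inhibitor. Changes were above 0 for 3 of 47 genes, against 44.9% of all genes, with a median of -0.78 against -0.085. None of the 47 passed in limma, where 0.0154% of all genes were called higher and 0% lower. At an unadjusted p below 0.05, 20 (42.6%) were lower and 1 (2.13%) higher, against 8.20% and 2.67% of all genes. The TPA libraries were both below both T-5224 libraries for 38 of 47 genes (80.9%), against 28.0% of all genes. They were both above for 2 (4.26%), against 16.5%. The counts below and above were 30 and 3 with median-of-ratios scaling (20.6% and 22.4% of all genes), 10 and 8 with haemoglobin left out of the sum (5.87% and 38.0%), and 21 and 2 with the length trend removed (20.8% and 20.6%). With haemoglobin left out 16 of 47 changes were above 0, against 80.7% of all genes. The median of the 47 genes minus that of all genes was then -0.58. Without T-5224 replicate 2 the median minus that of all genes was -0.28, and without T-5224 replicate 1 it was -0.995, against -0.69 with both. The alpha ring members all lay between -1.11 and -0.84. Psma2 was at 74.3 and 73.4 FPKM with TPA and 126 and 180 with T-5224 (-1.02, SE 0.322, limma adjusted p = 0.443), with no overlap between the groups. Among the 46 proteasome genes the lowest changes were those of Psmd1 (-1.64), Psmg4 (-1.53) and Psmg1 (-1.11). Only Psme3 (1.01), Psmg3 (0.27) and Psme4 (0.040) had a change above 0. Without T-5224 replicate 1, which leaves replicate 2 as the only T-5224 library, 9 members were called lower, Psma5, Psma6, Psma7, Psmb1, Psmc1, Psmd1, Psmd9, Psmg1 and Psmg4, and Psme3 was called higher. That fit called 3.42% of all genes lower and 1.71% higher, and its spread comes from the pairs of the other groups, since a lone T-5224 library has none.

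The coQ10 library was compared with BAPN alone. A single library has no spread of its own, so the spread of the 4 pairs stood in for it. None of the 47 genes passed in limma, where 0% of all genes were called higher and 0.0154% lower. At an unadjusted p below 0.05, 1 (2.13%) was higher and 1 lower, against 14.5% and 5.32% of all genes. The median was 0.18 against 0.39 for all genes, with 31 of 47 changes above 0 against 68.4%. The coQ10 value was above both BAPN libraries for 25 of 47 genes (53.2%), against 59.6% of all genes, and below for 9 (19.1%), against 24.1%. Those counts were 6 and 30 with median-of-ratios scaling (39.2% and 40.2% of all genes), 15 and 23 with haemoglobin left out of the sum (48.9% and 31.7%), and 13 and 25 with the length trend removed (39.2% and 42.1%). The median change was -0.30 and -0.078 under the first and second of these, against -0.0071 and 0.18 for all genes, so its sign changed with the scaling. The median of the 47 genes minus that of all genes was -0.22 as deposited. It was -0.30 and -0.25 under these scalings and -0.11 with the length trend removed. Among the 46 proteasome genes the highest changes were those of Psmd5 at 20.1 FPKM against 13.8 and 8.05 (0.87, limma adjusted p = 0.27), Psmd3 at 67.3 against 44.0 and 31.7 (0.83, 0.338) and Psmd11 at 47.2 (0.79, 0.313). Besides Psme3, the lowest were Psmb9 (-0.61) and Psmg3 (-0.53). For Psmd5, Psmd3, Psmd7 and Psmd11 the coQ10 values of 20.1, 67.3, 94.9 and 47.2 FPKM were above both BAPN libraries, and for Psmd7 the value was below both normal libraries.

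The remaining chaperones and the inhibitor are given for completeness of the roles. Psmf1, the inhibitor PI31, was at 7.77 and 7.05 FPKM in normal, 10.2 and 9.06 in BAPN, 9.84 and 10.0 with TPA, 10.7 and 11.5 with T-5224 and 8.36 with coQ10. Its 6 values in BAPN, TPA and T-5224 were all above those in normal and coQ10, but its changes did not pass in any comparison. How many of all genes share this order was not counted. Psmg1, which pairs with Psmg2 in assembling the alpha ring, was at 4.96 and 8.43 in normal, 11.8 and 8.89 in BAPN, 9.76 and 9.36 with TPA, 12.2 and 38.4 with T-5224 and 9.87 with coQ10. The normal libraries were the lowest, an order also not counted over all genes. Psmg3 was at 4.71 and 8.28 in normal and between 5.33 and 9.04 in the other groups.

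Psmc3ip, the recombination protein taken by its name, had the lowest mean level of the 47 genes. It was at 8.14 and 4.82 FPKM in normal, 1.08 and 2.07 in BAPN, 3.45 and 4.12 with TPA, 11.7 and 7.53 with T-5224 and 4.85 with coQ10. The BAPN libraries were the lowest of all, an order not counted over all genes. The changes were -1.53 in BAPN against normal (SE 0.387, limma adjusted p = 0.0633) and 2.04 in T-5224 against BAPN (SE 0.387, 0.148), neither of which passed. Without T-5224 replicate 1 or 2 the first of these was called lower (limma adjusted p = 0.0289 and 0.0282), in fits that called 22.8% and 23.1% of all genes lower. Without normal replicate 1 and T-5224 replicate 2 it was called higher in T-5224 against BAPN (2.33, limma adjusted p = 0.0172), where 11.1% of all genes were.

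Genes that act with the proteasome but lie outside the name pattern were taken from lists. Nfe2l1 is the transcription factor that raises proteasome gene expression when degradation is impaired, Ddi2 the protease that cleaves it and Ngly1 the enzyme that removes its sugars. Of 12 tested partners and regulators, 1 fell and none rose in BAPN against normal, where 2.36% of all genes were called lower and 0.900% higher. None of the 12 was called in the other 4 comparisons. Ddi2 was at 16.5 and 22.6 FPKM in normal, 2.89 and 4.37 in BAPN, 6.29 and 8.39 with TPA, 6.92 and 5.30 with T-5224 and 13 with coQ10, and fell by 2.15 log2 in BAPN against normal (SE 0.326, limma adjusted p = 0.0458). All 7 libraries given BAPN were below the normal libraries, and both BAPN libraries were below both normal libraries for 51.1% of all genes. With haemoglobin left out of the sum only 2 of all genes were called lower in BAPN against normal, and the result for Ddi2 there is not given. Nfe2l1 was at 140 and 138 in normal, 62.4 and 48.9 in BAPN, 78.1 and 99.6 with TPA, 66.8 and 56.4 with T-5224 and 105 with coQ10, with the same order of normal above all others, and a change of -1.32 in BAPN against normal that did not pass (SE 0.298, limma adjusted p = 0.0558). Nfe2l2 (-1.01, limma adjusted p = 0.162) and AI314180 (-0.77, 0.237) had the next smallest p, and neither passed. Pomp, the chaperone that completes the core, was at 118 and 98.4 in normal and 155 and 145 in BAPN. It was at 101 and 110 with TPA, 172 and 193 with T-5224 and 116 with coQ10. Its change of 0.47 in BAPN against normal did not pass (limma adjusted p = 0.294). The list's median was -0.38 against -0.51 for all genes. None of 14 tested ubiquitin and shuttle genes was called in any comparison. Ubqln4, a shuttle receptor, had the smallest p in BAPN against normal (-1.46, limma adjusted p = 0.0519), at 34.9 and 26.0 in normal and 12.3 and 8.61 in BAPN.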

How the data were processed

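Gene expression of mouse aorta was deposited as FPKM per gene symbol, 1 table for each of 9 libraries, per the file headers. The authors rounded the FPKM to 2 decimals, symbols at 0 are not listed and were set to 0 here, and the submitters' processing notes name mm10. RNA was taken with Trizol and libraries made with a TruSeq kit, per the labels' protocols, and neither names the aligner, the counter or the annotation. FPKM carry no counts, so the depth is unknown. The spacing of low values could not be resolved in every library, because in BAPN replicate 1 and T-5224 replicate 2 a second spacing was nearly as frequent as the first (0.982 and 0.957 times).

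Values were transformed to log2(FPKM + 1), and genes with a mean of at least 1 FPKM (12997) were fitted in limma 3.58.1 (R 4.3.3) with 5 groups, 4 residual degrees of freedom and an intensity trend. P-values were two-sided and Benjamini-Hochberg adjusted over all tested genes of each of 5 comparisons, with a threshold of 0.05. Ratios were tested with an exact permutation test in python 3.11.15. Coordinates and upstream windows came from RefSeq (GRCm38.p6), which placed all 47 genes and held a window for 40, and lengths from GENCODE M 21, which gave one for 97.3% of tested genes. Members, lists and tests were chosen with earlier results of these data known. Named were the immunoproteasome subunits with their counterparts, Psme1 to Psme4, every member that passed, and the 3 largest rises and falls of each comparison, while the remaining genes named were chosen after their values were seen. Alternatives were a pseudocount of 0.1, no filter, median-of-ratios scaling, haemoglobin left out of the sum, the length trend removed by loess, only the 2 groups, a replicate block and leaving out each library. Added after the data were seen were the fit without normal replicate 1 and T-5224 replicate 2, and the counts of genes without overlap under other scalings and with the length trend removed. The median-of-ratios scaling brings the median change of all genes in BAPN against normal from -0.51 to -0.0048. On simulated data for TPA against T-5224 (12997 genes), 18% of log2 changes of 2 and 74% of changes of 3 were recovered, and 0% of changes of 1. For coQ10 against BAPN 2% of changes of 2 and 40% of changes of 3 were recovered. In the remaining comparisons these shares were 20% to 32% and 46% to 64%. The simulated noise was independent between genes and had the same spread in every library. In the data the median difference between replicates over all genes, regardless of sign, was 0.74 log2 with T-5224 and 0.21 with TPA. The recovered shares may therefore not hold for the real libraries. Some marker genes are not reported here.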

Additional observations from a re-analysis of the deposited data

How the results depend on the processing

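The number of the 47 genes called lower in BAPN against normal, 1 with all libraries, was 0 with a pseudocount of 0.1, no filter, median-of-ratios scaling, haemoglobin left out of the sum, the length trend removed, only the 2 groups, or the replicate block, and 2 without normal replicate 1 and T-5224 replicate 2 together. Leaving out 1 library it ran from 0 to 2, with 0 without either normal, BAPN or TPA library. Without those libraries together, 4 genes were called higher in BAPN against normal (Psmb8, Psmb9, Psmb10 and Psme3), 1 higher in T-5224 against BAPN (Psmc3ip) and 1 lower in coQ10 against BAPN (Psme3), in a fit that called 9.53%, 11.1% and 5.79% of all genes that way. The spread of that fit comes from the BAPN and TPA pairs alone. In TPA against T-5224, leaving out 1 library gave 0 to 9 genes called lower and 0 to 1 called higher, with the upper values without T-5224 replicate 1. The other counts of called genes were 0 under every alternative run.

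The median of the 47 genes minus that of all genes was 0.145 in BAPN against normal and -0.40 in TPA against T-5224 with the length trend removed, against 0.55 and -0.69 as deposited. Without normal replicate 1 and T-5224 replicate 2 it was -0.027 in T-5224 against BAPN and -0.28 in TPA against T-5224. Leaving out 1 library, it ran from -0.027 to 0.56 in T-5224 against BAPN, from -0.995 to -0.28 in TPA against T-5224, and kept its sign in the other 3 comparisons. The 3 ratios stayed above the threshold in every alternative run. Of 1243 values of named genes under alternatives, 58 crossed 0. The causes were not tested.

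Replicate numbers did not pair the libraries: the correlation of replicate differences between groups ran from -0.44 to 0.18 over 6 pairs of groups. The replicate block left 7 of all genes called higher and 1 lower in BAPN against normal, against 117 and 307 without it, and none of the 47, with an adjusted p of 0.0942 for Psme4 in limma. Over all genes these counts were 56 and 96 with a pseudocount of 0.1, 33 and 20 with no filter, 197 and 30 with median-of-ratios scaling, 28 and 2 with haemoglobin left out, 112 and 14 with the length trend removed, 34 and 3 with only the 2 groups, and 1238 and 2794 without the 2 libraries that stood apart. They were 668 and 2965 without T-5224 replicate 1, 670 and 3000 without T-5224 replicate 2 and 0 and 0 without BAPN replicate 1, so the shares of all genes called also rest on single libraries. Dropping coQ10 leaves no value for its comparison.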
